A study of Mus musculus with 16 samples.

Results

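The genes described here encode the enzymes that attach ubiquitin to proteins and those that take it off again. They were chosen by symbol, as the rows of the deposited table whose names begin with Ube2, Usp and a digit, Uchl or Otud, pseudogenes left out, and 82 of the 12900 genes in the table met this rule. By family there were 31 ubiquitin conjugating enzymes (E2, symbols Ube2), 41 ubiquitin specific proteases (USP), 2 ubiquitin C-terminal hydrolases (UCH) and 6 ovarian tumour proteases (OTU). The remaining 2, Ube2cbp and Usp6nl, carry the name only, since the first binds E2 enzymes and the second is a GTPase-activating protein. All 82 had values in every sample and entered every test.

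Ubiquitin is activated by an E1 enzyme, passed to a cysteine of an E2 and from there, with the help of an E3 ligase, joined to a lysine of the target protein. Chains of ubiquitin can send a protein to the proteasome or alter its traffic and partners, and small relatives of ubiquitin such as NEDD8 and ISG15 travel through E2 enzymes of their own. Deubiquitinating enzymes of the USP, UCH and OTU families cut ubiquitin off with a catalytic cysteine. In migrating fibroblasts the ligase Smurf1 is known to act on RhoA at the cell front.

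The RNAs came from NIH/3T3 cells, an established line of mouse embryo fibroblasts, stably transduced with a doxycycline-inducible construct that carries the β-globin coding sequence. In the HBB control line this sequence was followed by the β-globin 3′UTR, and in the Pkp4 cUTR line (competing UTR) by the 3′UTR of Pkp4, known to direct RNA to protrusions. Each line received 1 µg/ml doxycycline for 3 days, was plated for 2 h on filters with pores of 3 µm, received LPA in the lower chamber for 1 h and was fixed in 0.3% paraformaldehyde for 10 min. Protrusions (Ps) under the filter and cell bodies (CB) above it gave 4 replicates each in both lines, 16 samples in all, and each line is a single stably transduced population, so that a difference between the lines cannot be told apart from a difference between 2 cell populations.

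Between 18660287 and 31260831 reads per sample lay on the 12900 genes, and 3 reads, taken as the limit of detection for counting error only, corresponded to 0.0890 to 0.176 CPM (reads per 1000000). Reads on Pkp4 rose from 21.5 to 23.1 CPM in HBB cell bodies to 306 to 640 CPM in Pkp4 cUTR cell bodies, as the labels of the lines require. Of 10 fibroblast markers 9 had rows, with a summed level of 21764 to 34906 CPM over the samples, whereas the rows present for blood, endothelial, epithelial and neural markers summed to at most 20.4 CPM per list and the single muscle marker with a row, Des, to 20.5 to 65.1 CPM. Ptprc, Kdr, Epcam, Myod1 and Map2 had no row. The nuclear RNA Malat1 had a log2(FC) of −1.85, the protrusion RNA Rab13 of 2.36 and Arpc3, listed as a diffuse RNA, of 0.50 in HBB cells (adjusted p = 3.1e-05 for Arpc3), where log2(FC) is the log2 fold change of Ps over CB. On the first principal component the cell bodies of replicate 4 had the lowest score of the cell bodies of their line, 6.97 against 19.6 to 32.6 in Pkp4 cUTR cells, where the sample stood apart, and 25.1 against 30.2 to 36.3 in HBB cells. A level is a share of the RNA in a fraction, so fewer RNA molecules per cell and a different mass of the other RNAs cannot be told apart.

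The catalytic sites of close relatives show how alike their coding sequences are there, beside the enrichments of their RNAs. The stretches shown hold 30 bases of coding sequence (10 codons) from the GENCODE vM21 transcripts on GRCm38, the build to which the authors aligned, with the codon of the catalytic cysteine in capitals. In the E2 enzymes it is the last codon of the stretch and in the USP enzymes the fourth, in the segment known as the Cys box.
Ube2d3: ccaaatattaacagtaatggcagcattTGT
Ube2d1: ccaaatataaacagcaacgggagtattTGT
Ube2b: ccaaatgtgtatgctgatggtagcataTGT
Ube2a: cctaacgtctatgcagatggtagtataTGT
Usp15: ggaaatacgTGTttcatgaactcagccatt
Usp4: gggaacactTGCttcatgaactctgctctg
Usp33: ggaaatactTGTtatatgaacgcggcgctg
Usp20: ggaaactccTGTtacatgaatgctgccctg

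These relatives were picked after their values had been seen. The segments lie at chr3:135460002-135460031 (Ube2d3, + strand), chr10:71258250-71258279 (Ube2d1, − strand), chr11:51988678-51991400 (Ube2b, − strand, across 2 exons), chrX:36881740-36882621 (Ube2a, + strand, across 2 exons), chr10:123146797-123146826 (Usp15, − strand), chr9:108366846-108366875 (Usp4, + strand), chr3:152364001-152364030 (Usp33, + strand) and chr2:31004955-31004984 (Usp20, + strand). Ube2d3 and Ube2d1 differed at 5 of the 30 bases, Ube2b and Ube2a at 5, Usp15 and Usp4 at 8 and Usp33 and Usp20 at 7, and in both USP pairs 9 of the 10 encoded residues were the same. In HBB cells log2(FC) was 0.56 ± 0.07 (SE) for Ube2d3 and 0.07 ± 0.07 for Ube2d1, both E2 enzymes of broad use with many ligases. Usp15 and Usp4, which both act on TGF-β signalling, had 0.98 ± 0.12 and −0.15 ± 0.06. For Usp33 and Usp20, which both bind the von Hippel-Lindau protein, the values were 0.31 ± 0.13 and −0.57 ± 0.09. Ube2b and Ube2a, the RAD6 enzymes of DNA damage tolerance, had 0.52 ± 0.08 and 0.42 ± 0.08, and 0.10 and 0.00 with the GC trend of each sample removed (adjusted p = 0.25 and 0.99). After that step, described with the base composition of the transcripts, Ube2d3 and Ube2d1 had 0.00 and −0.10, Usp15 and Usp4 0.56 and −0.08, and Usp33 and Usp20 0.00 and −0.38. The differences within these pairs were not tested.

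The first comparison asked which of these RNAs were enriched in protrusions of control cells. In HBB cells 39 of the 82 RNAs were higher in Ps at an adjusted p under 0.05 from limma, 16 were lower and 27 passed in neither direction. Among all 12900 genes 28.3% were higher and 28.9% lower. The median log2(FC) of the 82 was 0.22, beside 0.01 for all genes. Few RNAs moved far: 2 of the 82, Usp34 and Uchl3, had over 2 times the level in Ps at an unadjusted p under 0.05, against 4.54% of all genes. In Pkp4 cUTR cells 36 RNAs were higher and 18 lower (28.2% and 28.5% of all genes), with a median of 0.21, and 4 were over 2-fold (5.07% of all genes), which were Usp34, Usp15, Usp16 and Ube2v2. The count over 2-fold in HBB cells was 1 without HBB protrusions replicate 3 or HBB cell bodies replicate 4, and 4 without HBB cell bodies replicate 1.

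**Figure D1:**
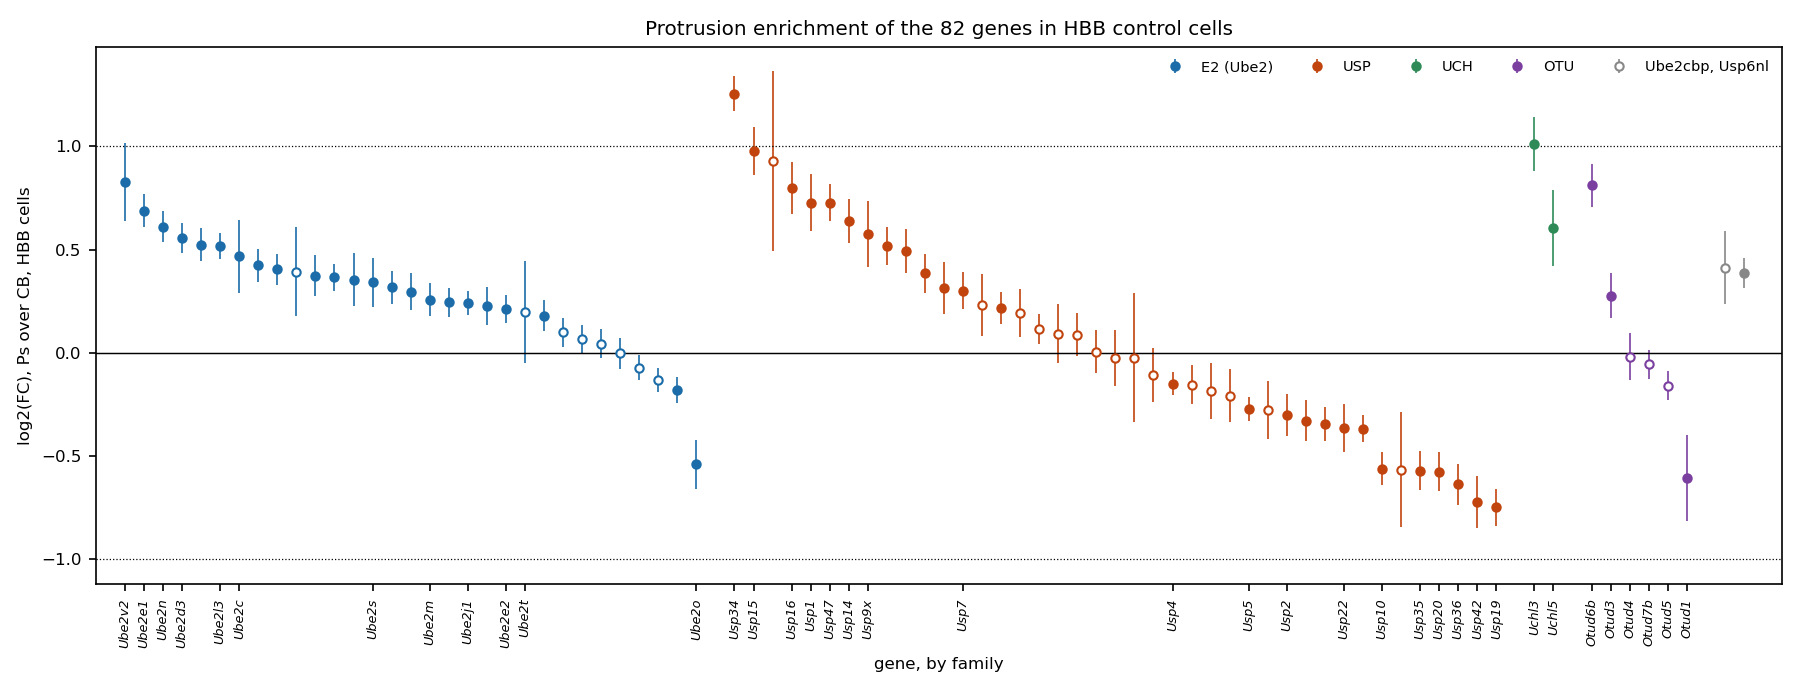
Enrichment in protrusions of the HBB line as log2(FC) of Ps over CB (vertical axis, log2 scale) for each of the 82 genes (horizontal axis), ordered within families and labelled where named by rule, with bars of 1 standard error from limma. Filled points passed an adjusted p of 0.05 and dotted lines mark a fold change of 2 in either direction. Usp34 is the highest at 1.26 and Usp19 the lowest at −0.75, and of the E2 enzymes 21 are filled above 0 and 2 below.

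Scaling to the sample totals moved the zero point of all of these values. The authors' library factors were below 1 in every Ps sample and above 1 in every CB sample, from 0.828 to 1.11. Without them the median of all genes moved to −0.23 in HBB and −0.25 in Pkp4 cUTR cells, and the median of the 82 to −0.02 and −0.05. On that scale 16 of the 82 were higher and 27 lower in HBB protrusions (15.0% and 43.5% of all genes), and 12 and 33 in Pkp4 cUTR protrusions (13.9% and 45.5%). Such a change of scale moves all genes nearly alike, so that it alters the direction of RNAs near 0.

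The base composition of the transcripts moved with enrichment. The GC content of the representative transcript was between 35.1% and 63.4% for the 82, with a median of 47.7% against 50.8% over 12766 genes with an annotation. Across the 82 genes, which share the same 16 libraries and are not independent replicates, Pearson's r of GC content with log2(FC) in HBB cells was −0.65 and Spearman's rho −0.68, and across the 12766 genes r was −0.34 and rho −0.36. All genes were divided into 5 equal classes by GC content. The class of lowest GC content had a median log2(FC) of 0.38, with 51.0% of all its genes higher and 7.32% lower. Of the 24 of the 82 in it (median 0.57) 21 were higher and 0 lower. In the next to lowest class 11 of 20 were higher and 0 lower (31.4% and 19.0% of all its genes). In the middle class 4 of 20 were higher and 5 lower (23.5% and 30.8%). In the next to highest class the median was −0.16 for all genes, and 0 of the 11 genes there were higher and 7 lower (19.7% and 40.5%). The class of highest GC content had −0.25 for all genes, with 3 of 7 higher and 4 lower (16.45% and 47.3%). When each sample's trend over 20 bins of GC content was removed, an alternative chosen after the data had been seen, 26 of the 82 were higher and 12 lower in HBB cells (26.7% and 26.8% of all genes) with a median of 0.04. In Pkp4 cUTR cells the same step left 25 higher and 18 lower (26.0% and 27.1%) with a median of 0.00. Of the 39 higher and 16 lower RNAs in HBB cells 22 and 11 kept their call, and of the 36 and 18 in Pkp4 cUTR cells 22 and 11. After this step 0 RNAs in HBB cells and 1 in Pkp4 cUTR cells, Usp15, were over 2-fold. The share of all genes over 2-fold after it is not given, so these 2-fold counts cannot be set against the background.

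**Figure D2:**
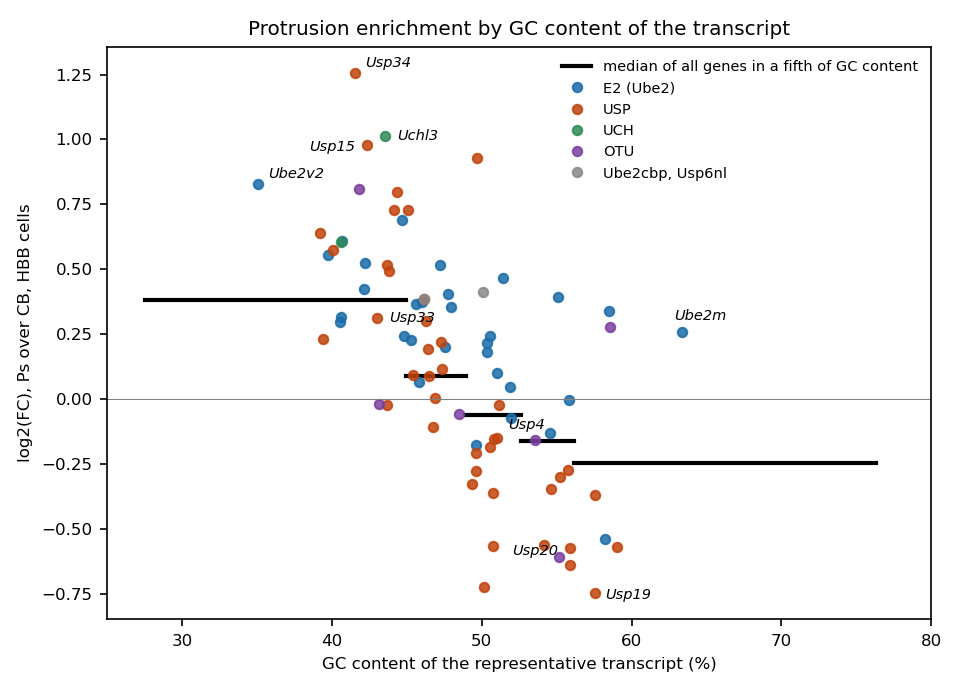
Enrichment in the HBB line as log2(FC) of Ps over CB (vertical axis) against the GC content of the representative transcript in percent (horizontal axis), with a point for each of the 82 genes coloured by family. Black lines give the median of all genes in each of 5 classes of GC content, which falls from 0.38 to −0.25, and the median of the 82 falls from 0.57 to −0.37 over the same classes.

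The deubiquitinating enzymes held both the highest and the lowest RNAs. Of the 41 USP genes 13 were higher and 13 lower in HBB protrusions, shares close to the 28.3% and 28.9% of all genes, with a median log2(FC) of −0.02, and in Pkp4 cUTR cells 15 were higher and 14 lower. Their range reached from −0.75 to 1.26 in HBB cells. GC content and log2(FC) had an r of −0.79 over the 41.

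Usp34, a very large protease that acts on axin in Wnt signalling (chr11:23306895-23490560, + strand), stood highest. Its levels were 18.7, 17.2, 15.4 and 13.2 CPM in HBB cell bodies and 37.4, 39.4, 40.4 and 36.7 CPM in HBB protrusions. Every Ps sample lay above every CB sample in both lines, and log2(FC) was 1.26 ± 0.09 (SE) in HBB and 1.32 ± 0.09 in Pkp4 cUTR cells (adjusted p = 5.8e-09 and 6.3e-09 by limma). The exons of Usp34 overlap those of Ahsa2 on the other strand over 2137 bases, and whether the counting used strand is not given in the sources used here.

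Usp15 (chr10:123105006-123196995, − strand) was the next USP in HBB cells. It had 5.18, 4.33, 4.23 and 3.64 CPM in HBB cell bodies against 8.52, 8.82, 8.94 and 8.08 in protrusions, and 4.45, 3.42, 3.44 and 4.00 against 10.3, 12, 12.2 and 10.5 CPM in the Pkp4 cUTR line. The fractions did not overlap in either line and the gap was wider in Pkp4 cUTR cells, where log2(FC) was 1.55 ± 0.12.

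Of 15 USP genes listed for chromatin, DNA repair and the nucleus 4 were higher and 5 lower in HBB protrusions, with a median of −0.15, shares near those of all genes. Further USP RNAs at the upper end follow. Usp16, a histone deubiquitinase, averaged 4.79 ± 0.74 CPM (SD, n = 4) in HBB cell bodies and 8.25 ± 0.57 in protrusions, with a log2(FC) of 0.80. Usp1, which with its cofactor Wdr48 deubiquitinates PCNA and FANCD2, rose by 0.73, as did Usp47, a protease linked to β-TrCP and base excision repair. Usp14, which trims chains on the proteasome, rose by 0.64 (21.0 ± 1.9 CPM in Ps and 13.5 ± 1.8 in CB), and the X-linked Usp9x by 0.58. The exons of Usp14 overlap those of Thoc1 on the other strand over 2169 bases. With the GC trend removed the log2(FC) of Usp14 fell to 0.09 (adjusted p = 0.47) and that of Usp9x to 0.03 (adjusted p = 0.91), while Usp34, Usp15, Usp16, Usp1 and Usp47 kept values of 0.49 to 0.84 with adjusted p from 1.8e-07 to 0.0078.

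Usp19, an endoplasmic reticulum-anchored protease (chr9:108490602-108502337, + strand), stood lowest. It had 198, 200, 217 and 189 CPM in HBB cell bodies and 118.78, 113.35, 119.83 and 126.45 in protrusions, and 155, 181, 199 and 145 against 107, 91.2, 94.2 and 109 CPM in Pkp4 cUTR cells. All Ps samples lay below all CB samples of their line, with a log2(FC) of −0.75 ± 0.09 and −0.76 ± 0.09, and −0.50 in HBB cells with the GC trend removed (adjusted p = 3.4e-05).

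Usp42 (−0.72), Usp36 (−0.64), Usp20 (−0.57), Usp35 (−0.57) and Usp10 (−0.56) followed in HBB cells. Usp36 is the nucleolar deubiquitinase, and its samples held 53.1 to 62.2 CPM in HBB cell bodies and 32.8 to 41.0 CPM in protrusions, without overlap. Usp10 binds the stress granule protein G3bp1 and had 48.7 to 55.9 against 32.8 to 35.7 CPM. With the GC trend removed these 5 kept values of −0.28 to −0.69 in HBB cells and an adjusted p under 0.05 there.

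By level per length Usp19, described above, was next to the highest of the USP RNAs. Usp5, which takes free ubiquitin chains apart, was the highest (82.8 CPM per kb of transcript over all samples). It had 289 ± 6.0 CPM in HBB cell bodies and 239 ± 9.0 in protrusions, a log2(FC) of −0.27 (adjusted p = 0.00051), and −0.08 with the GC trend removed (adjusted p = 0.16), where it did not pass in Pkp4 cUTR cells either (−0.11, adjusted p = 0.069). Usp22, the deubiquitinase of the SAGA complex, was lower by −0.36, and Usp4 by −0.15 (adjusted p = 0.031), a call lost without protrusions 2, 3 or 4 or cell bodies 1 or 2 of the HBB line (adjusted p from 0.061 to 0.082). Usp7, which acts on Mdm2 and p53, was higher by 0.30, with 1 protrusion sample (41.9 CPM) below 1 cell-body sample (43.2 CPM). Usp39, Usp50 and Usp54 were listed together as relatives without protease activity, which was not tested. None of them passed in HBB cells, with values of −0.15, 0.93 and −0.21 (adjusted p = 0.17, 0.076 and 0.17), and Usp50 had only 3 to 17 reads per sample. At p under 0.05 without adjustment 1 of the 3, Usp50, passed, beside 61.8% of all genes. In Pkp4 cUTR cells Usp39 and Usp54 fell, with −0.23 and −0.44 (adjusted p = 0.042 and 0.0068), and Usp50 had 0.95 (adjusted p = 0.057).

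The WDR48-bound enzymes Usp1, Usp12 and Usp46 did not move as a group. In HBB cells log2(FC) was 0.73 for Usp1 and 0.52 for Usp46, with an adjusted p of 0.00022 and 0.00011. With the GC trend removed Usp46 had 0.20 (adjusted p = 0.079). Usp12, the nearest relative of Usp46, had −0.28 (adjusted p = 0.097), and −0.54 in Pkp4 cUTR cells (adjusted p = 0.0038). Wdr48 itself had 0.10 (adjusted p = 0.26).

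The UCH and OTU families were small. Uchl3, a hydrolase for ubiquitin and NEDD8 (chr14:101653967-101696125, + strand), had 5.41, 5.58, 6.10 and 4.86 CPM in HBB cell bodies and 10.5, 11.6, 12.5 and 10.1 CPM in HBB protrusions. All protrusion samples were above all cell-body samples, with a log2(FC) of 1.01 ± 0.13 (adjusted p = 3.9e-06), and 0.70 with the GC trend removed. Of the read-length windows of its transcript 5.78% occur also in its near copy Uchl4, so reads from these could belong to either. Uchl5, a proteasome-bound hydrolase, rose by 0.61, from 1.34 ± 0.098 to 2.08 ± 0.25 CPM, and had 0.19 with the GC trend removed (adjusted p = 0.32). Uchl1 is not analysed here.

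Of the 6 OTU genes 2 were higher and 1 lower in HBB protrusions, beside 28.3% and 28.9% of all genes. Otud6b, linked to the translation machinery, rose by 0.81 ± 0.10 (12.2 to 13.8 CPM in Ps and 6.70 to 8.52 in CB). Otud3 rose by 0.28 (adjusted p = 0.036), a call lost without protrusions 1, 2 or 3 or cell bodies 2 or 4 of the HBB line (adjusted p from 0.070 to 0.11), and by 0.57 with the GC trend removed. Otud1 fell by 0.61 (adjusted p = 0.019), from 3.75 to 5.37 CPM in cell bodies to 1.71 to 4.32 CPM in protrusions, which overlapped, and the call was lost with the GC trend removed (−0.44, adjusted p = 0.097) and without HBB protrusions replicate 3 or cell bodies replicate 2 (adjusted p = 0.095 and 0.060). Otud5, Otud4 and Otud7b had −0.16, −0.02 and −0.06 and did not pass. With the GC trend removed Otud4 was lower, with −0.33 in HBB and −0.25 in Pkp4 cUTR cells (adjusted p = 0.0031 and 0.017 by limma). Otud5 and Otud7b did not pass after that step either (adjusted p = 0.98 and 0.41 in HBB cells).

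**Figure D3:**
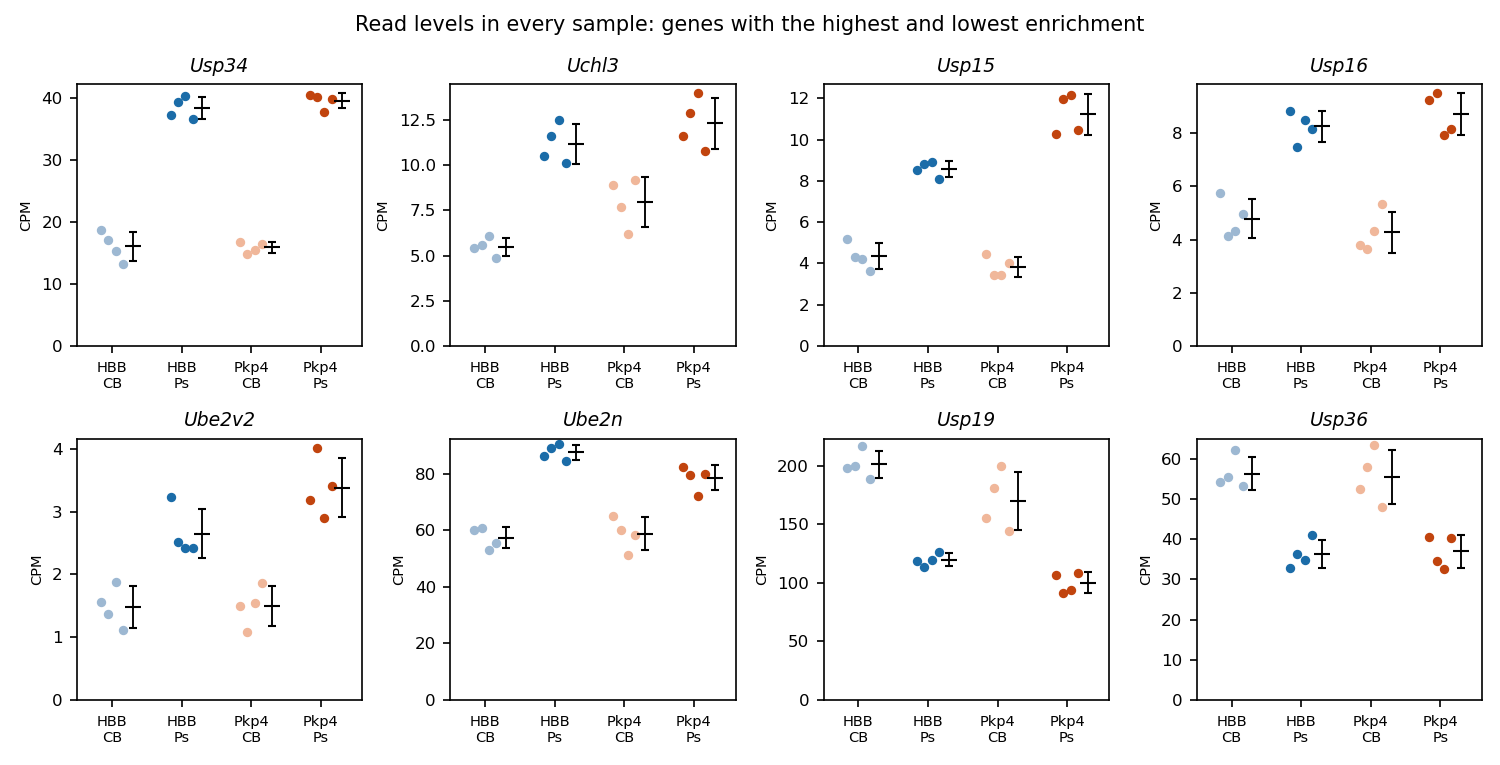
CPM in each of the 16 samples (vertical axes, from 0) for 6 genes higher in protrusions in both lines, Usp34, Uchl3, Usp15, Usp16, Ube2v2 and Ube2n, and for Usp19 and Usp36, which were lower. Points are samples, and the black bar beside each group of 4 gives its mean and SD. Protrusion and cell-body samples of the same line do not overlap in any panel, but most of these genes were picked for their enrichment. Among all genes protrusions lay wholly above cell bodies for 25.5% and wholly below for 26.8% in HBB cells. In Pkp4 cUTR cells these shares were 22.6% and 22.2%.

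The E2 enzymes leaned to the protrusion side in control cells. Of 31, 21 were higher in HBB protrusions and 2 lower (28.3% and 28.9% of all genes), with a median log2(FC) of 0.30 and a range of −0.54 to 0.83. In Pkp4 cUTR cells 15 were higher and 3 lower (28.2% and 28.5% of all genes). Their median GC content was 47.7% and that of the USP genes 47.3%, and with the GC trend removed 13 E2 genes were higher and 2 lower in HBB cells (median 0.19) and 10 and 6 in Pkp4 cUTR cells (median 0.03).

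Of the 14 E2 enzymes that pass ubiquitin to many ligases 12 were higher and 1 lower in HBB cells (28.3% and 28.9% of all genes). In Pkp4 cUTR cells 9 were higher and 1 lower (28.2% and 28.5%). With the GC trend removed Ube2d2a, Ube2e1, Ube2e2, Ube2l3 and Ube2r2 stayed higher in HBB cells. Ube2a, Ube2b, Ube2d3, Ube2e3, Ube2k, Ube2n and Ube2w no longer passed there (adjusted p from 0.053 to 0.99 by limma). In Pkp4 cUTR cells Ube2e1, Ube2l3 and Ube2r2 then stayed higher, and Ube2d1, Ube2d3 and Ube2h were lower. Ube2e1 had 24.5, 27, 24.5 and 25.1 CPM in HBB cell bodies and 40.8, 43.4, 40.9 and 37.8 in protrusions, a log2(FC) of 0.69 ± 0.08 without overlap. Its relatives Ube2e2 and Ube2e3 had 0.21 and 0.23, and 0.25 and 0.06 with the GC trend removed, when Ube2e3 did not pass (adjusted p = 0.61). Ube2d3 had 117 to 133 CPM in HBB cell bodies and 170 to 191 CPM in protrusions. Ube2l3, which works with HECT and RBR ligases such as parkin, rose by 0.52 (198 ± 11 against 139 ± 5.9 CPM). Its exons overlap those of Ydjc on the other strand over 1670 bases, and 9.94% of its read-length windows occur also in other genes. Ube2h was the member that was lower (−0.18). With the GC trend removed Ube2d3 had 0.00 and Ube2l3 0.42 (adjusted p = 0.97 and 2.5e-05), and in Pkp4 cUTR cells Ube2d3 turned to −0.17 (adjusted p = 0.049).

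Ube2n and Ube2v2 form the dimer that builds chains used in DNA damage and NF-κB signalling, and Ube2v2 and Ube2v1 lack the catalytic cysteine. Ube2n had 60.3, 61.0, 53.0 and 55.4 CPM in HBB cell bodies and 86.2, 89.0, 90.5 and 84.6 CPM in protrusions, a log2(FC) of 0.61 ± 0.08. Ube2v2 was scarcer, with 1.57, 1.36, 1.88 and 1.11 against 3.23, 2.52, 2.42 and 2.42 CPM, and a log2(FC) of 0.83 ± 0.19. Both were without overlap, but with the GC trend removed, Ube2v2 having the lowest GC content of the 82, the values in HBB cells were 0.19 and 0.28 (adjusted p = 0.053 and 0.21). Ube2v1 had 0.39 (adjusted p = 0.13). Its reads are uncertain, since 82.5% of its windows occur also in Gm20431, the readthrough transcript with Tmem189.

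Among E2 enzymes of other modifiers Ube2m, for NEDD8, had the highest level per length of the 82, 112 CPM per kb. It rose by 0.26 in HBB cells, from 140 to 169 CPM in cell bodies to 161 to 191 in protrusions, with overlap, and by 0.48 with the GC trend removed. Ube2f, the other NEDD8 enzyme, rose by 0.41 and Ube2l6, for ISG15, by 0.18. The protease for ISG15, Usp18, is not analysed here.

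The E2 enzymes of the endoplasmic reticulum were closer to 0. Ube2j1, anchored in its membrane, rose by 0.24 and Ube2g1 by 0.30, while Ube2j2 and Ube2g2 had 0.10 and −0.13 and did not pass. With the GC trend removed Ube2j1 had 0.0015 and Ube2g1 −0.12 in HBB cells (adjusted p = 0.99 and 0.21), and Ube2g1 was lower in Pkp4 cUTR cells, with −0.29 (adjusted p = 0.0070). Ube2c and Ube2s, which start and extend chains for the anaphase-promoting complex, rose by 0.47 and 0.34 in HBB cells (adjusted p = 0.032 and 0.019). The call of Ube2c was lost without HBB protrusions 1 or 3 or cell bodies 1, 2 or 3 (adjusted p from 0.065 to 0.098), and that of Ube2s without protrusions 3 or 4 or cell bodies 2 (adjusted p from 0.052 to 0.072). In Pkp4 cUTR cells neither passed, with 0.37 and 0.21 (adjusted p = 0.079 and 0.13). With the GC trend removed Ube2c had 0.53 in HBB and 0.45 in Pkp4 cUTR cells (adjusted p = 0.023 and 0.046 by limma). Ube2s then had 0.63 and 0.43 (adjusted p = 0.00016 and 0.0039), so that both passed in both lines. Ube2o, a large enzyme that is E2 and E3 at once and acts on unassembled ribosomal proteins, fell by 0.54, from 105 to 130 CPM in HBB cell bodies to 81.9 to 86.3 CPM in protrusions.

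The other genes of the ubiquitin pathway, from a list that does not depend on these symbols, were fitted in the same way. Of 76 tested, 37 were higher and 11 lower in HBB protrusions with a median of 0.21, beside 28.3% and 28.9% of all genes, and 30 and 9 with the GC trend removed, with a median of 0.12, beside 26.7% and 26.8%. Among 13 modifiers 9 were higher and 0 lower in HBB cells. They included Rps27a and Fau, which encode ubiquitin and a ubiquitin-like protein fused to ribosomal proteins, with 1.21 and 1.01, and Nedd8 with 0.74, while Ubb, a polyubiquitin gene, had 0.06 and did not pass. At p under 0.05 by limma without adjustment 9 of the 13 modifiers passed, all of them higher, beside 61.8% of all genes. Of 10 E1 genes 3 were higher, 2 lower and 5 passed in neither direction, beside 28.3% higher and 28.9% lower among all genes. Both subunits of the NEDD8 E1, Nae1 and Uba3, rose by 0.74 and 0.73, whereas Uba1, the main ubiquitin E1, fell by 0.27 and Uba7, the ISG15 E1, by 0.89. Of 23 other deubiquitinating enzymes 11 were higher and 4 lower, with Brcc3 at 0.90 and Psmd14, the proteasome's own, at 0.57. Of 11 SUMO, NEDD8 and UFM1 proteases and related DeSI proteases 6 were higher and 0 lower by limma. At an unadjusted p under 0.05 there were 8 of the 11, beside 61.8% of all genes. Of 9 further E2 and E2-like genes 5 were higher and 1 lower, and of 10 cofactors 3 and 4.

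The next comparison asked whether the Pkp4 3′UTR changed the enrichment of these RNAs. The lines gave much the same picture, although each has its own samples. Of the 39 RNAs higher in HBB protrusions 33 (84.6%) were among the 36 higher in Pkp4 cUTR protrusions (91.7% of these), and of the 16 lower RNAs 14 (87.5%) were among the 18 (77.8%). The same overlap over all genes is not given, so whether it is particular to these RNAs cannot be told. For log2(Diff FC), the log2(FC) of Pkp4 cUTR minus that of HBB cells, 0 of the 82 had an adjusted p under 0.05 by limma (0.0% of all genes), and 2 had an unadjusted p under 0.05 (2.33% of all genes). At an unadjusted p under 0.1, one of the cutoffs that the study combined, there were 5 of 82, beside 5.80% of all genes, so that the share was near the background. The count was 3 without HBB protrusions replicate 3 or Pkp4 cUTR protrusions replicate 2, and 8 without Pkp4 cUTR protrusions replicate 1.

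These 5 were Usp15, Ube2e2, Uchl3, Ube2t and Ube2n. Usp15 gained enrichment, with a log2(Diff FC) of 0.57 ± 0.16 and an unadjusted p of 0.0026 by limma. The other 4 had negative values, of −0.21 for Ube2e2, −0.37 for Uchl3, −0.67 for Ube2t and −0.19 for Ube2n, at an unadjusted p of 0.042, 0.051, 0.057 and 0.097. The adjusted p was 1.00 for each of the 5. Uchl3 had 8.89, 7.66, 6.18 and 9.20 CPM in Pkp4 cUTR cell bodies and 11.6, 12.9, 14 and 10.8 in protrusions, so its cell bodies were above those of HBB cells and its protrusions overlapped with those of HBB cells. Without the cell bodies of replicate 4 in both lines Uchl3 had −0.26 and Ube2t −0.45 and neither passed. With the replicate number as a block within each fraction, which pairs the lines, 9 of the 82 had p under 0.1 (11.1% of all genes) and the same 5 were among them. In the fit without the block, single omissions took Ube2n past 0.1 in 11 of 16 cases, Ube2t without HBB protrusions 2 or 4, HBB cell bodies 1 or Pkp4 cUTR protrusions 2, and Uchl3 without HBB protrusions 3, Pkp4 cUTR protrusions 4 or Pkp4 cUTR cell bodies 1 or 4.

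**Figure D4:**
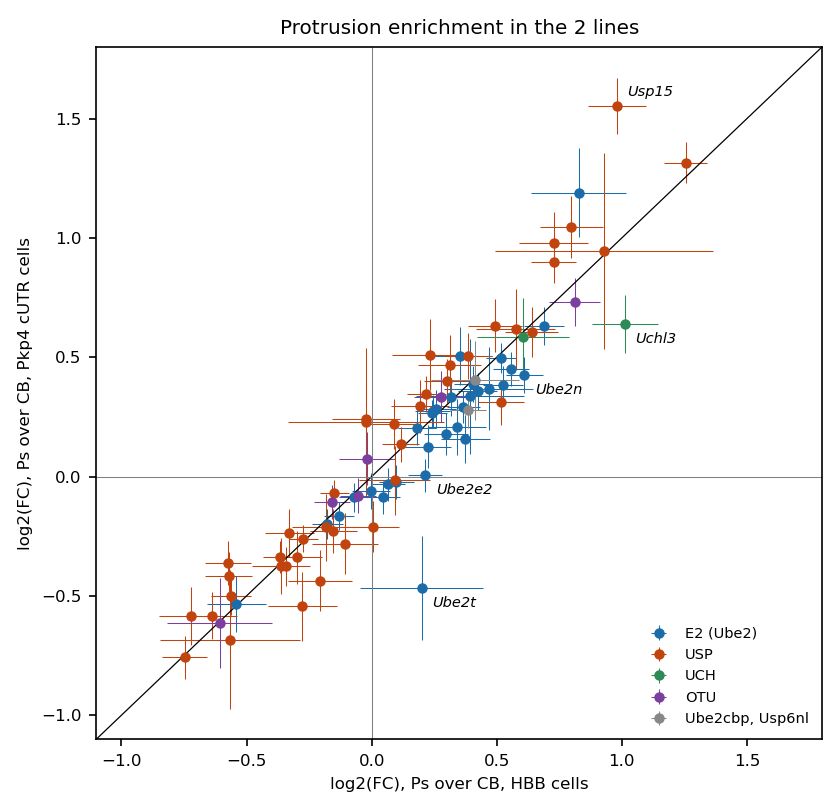
Enrichment as log2(FC) of Ps over CB in the Pkp4 cUTR line (vertical axis) against the HBB line (horizontal axis) for the 82 genes, with bars of 1 standard error from limma and the line of equal enrichment. Named genes had an unadjusted p under 0.1 for log2(Diff FC), and Usp15 lies farthest above the line among them while Ube2t lies farthest below.

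The lines were last compared within each fraction. In cell bodies 3 of the 82 were higher in Pkp4 cUTR cells (3.42% of all genes) and 2 lower (5.55%), and in protrusions 2 were higher (2.89%) and 0 lower (4.26%), at an adjusted p under 0.05 by limma. In protrusions 16 of the 82 had an unadjusted p under 0.05, beside 22.0% of all genes. With same-numbered replicates of the lines as pairs, 9 were higher and 3 lower in cell bodies (10.6% and 11.9% of all genes), and 7 higher and 4 lower in protrusions (8.75% and 9.58%), so the number of calls rested on the pairing.

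Usp1 differed most in protrusions. It had 4.41, 4.27, 5.41 and 5.49 CPM in HBB and 6.32, 7.48, 8.30 and 6.75 CPM in Pkp4 cUTR protrusions, a log2 difference between the lines of 0.56 ± 0.13 (adjusted p = 0.011), without overlap. Of the read-length windows of its transcript 6.05% occur also in Gm5841. Usp15 was higher by 0.38 ± 0.11 (adjusted p = 0.035), and the call was lost without any HBB protrusion sample or Pkp4 cUTR protrusions 2 or 3 (adjusted p from 0.056 to 0.11) but held in the paired fit (adjusted p = 0.0079). Usp19 had −0.26 in protrusions and −0.25 in cell bodies, which passed only in the paired fit (adjusted p = 0.0055 and 0.0045).

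In cell bodies Ube2t, the E2 of the Fanconi anaemia pathway, was highest. Its Pkp4 cUTR samples held 2.8, 2.4, 3.0 and 5.3 CPM and its HBB samples 1.37, 1.88, 1.85 and 1.69 CPM, a log2 difference of 0.91 ± 0.21 (adjusted p = 0.011). The groups did not overlap, and the highest value belongs to replicate 4, which stood apart. Uchl3 was higher by 0.51 ± 0.13 (adjusted p = 0.019) and Ube2e1 by 0.26 ± 0.08 (adjusted p = 0.047). Usp35 and Usp2, the second of which is a circadian gene, had −0.32 ± 0.09 and −0.32 ± 0.10 (adjusted p = 0.028 and 0.046). The call of Uchl3 was lost without HBB cell bodies 1 or Pkp4 cUTR cell bodies 1 or 4 (adjusted p from 0.053 to 0.071) and that of Usp35 without HBB cell bodies 1, 3 or 4 or Pkp4 cUTR cell bodies 1 or 4 (adjusted p from 0.060 to 0.10), while 10 of the 16 single omissions removed that of Usp2 and 13 that of Ube2e1. Without the cell bodies of replicate 4 the difference of Uchl3 was 0.39, of Ube2e1 0.20, of Usp35 −0.25 and of Usp2 −0.26 (adjusted p = 0.12, 0.20, 0.15 and 0.19), and Ube2t was the single call left. With the GC trend removed Ube2e1, Usp35 and Usp2 did not pass (adjusted p = 0.081, 0.12 and 0.084).

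**Figure D5:**
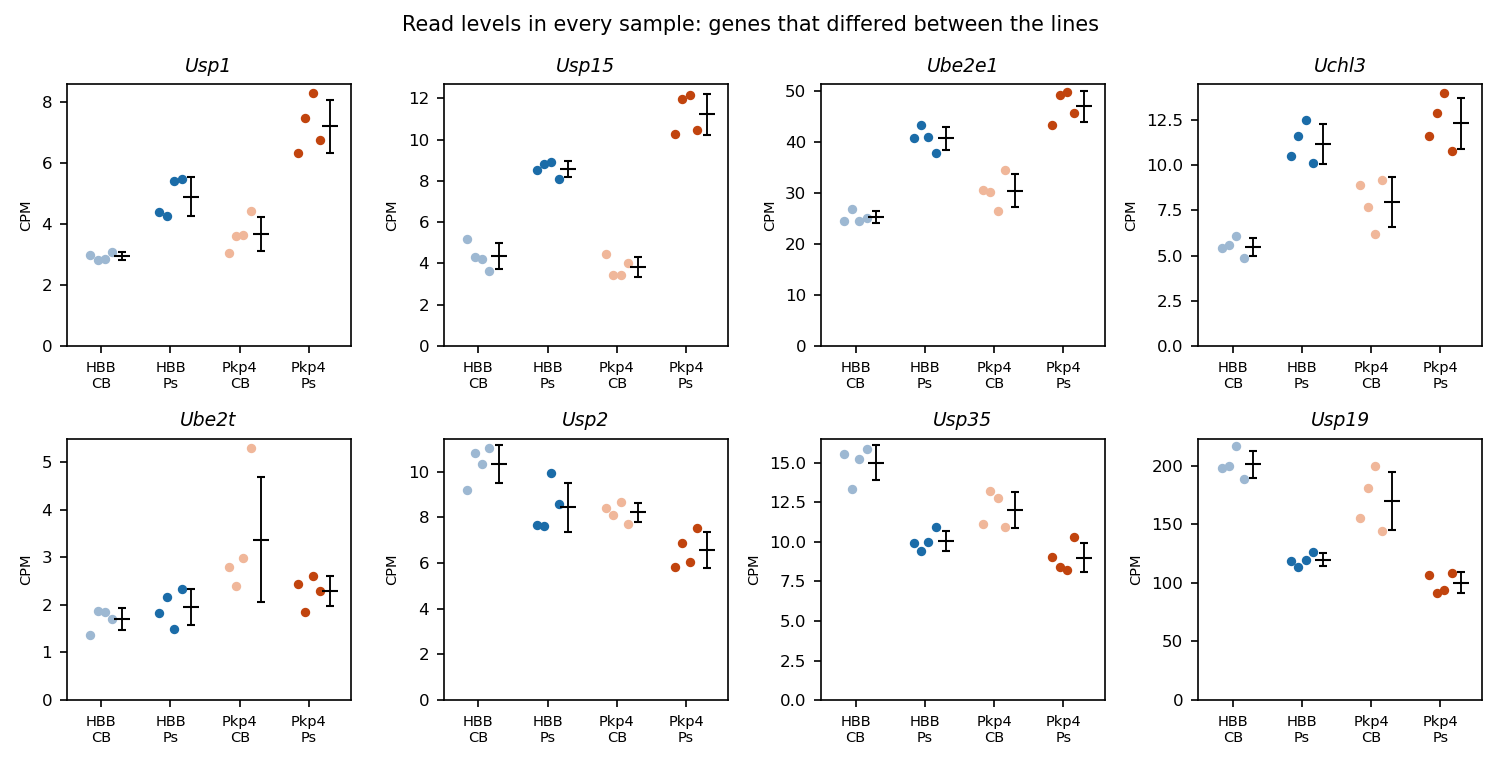
CPM in each of the 16 samples (vertical axes, from 0) for 8 genes that differed between the lines in cell bodies or protrusions, Usp19 in the paired fit alone. Points are samples and the black bar beside each group of 4 gives its mean and SD. Usp1 in protrusions and Ube2t in cell bodies are higher in all Pkp4 cUTR samples than in any HBB sample, and Ube2t has 1 sample at 5.3 CPM. Such a separation upward was seen for 6.31% of all genes in protrusions and 6.49% in cell bodies.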

How the data were processed

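Total RNA of protrusions and cell bodies was sequenced as stranded libraries. The authors aligned reads to mm10 with STAR 2.4.2a, counted them on GENCODE genes with Rsubread and deposited limma-voom (limma 3.26.1) log2 CPM for 12900 genes. Reads were recovered from the steps between these values (100% within 0.01 of a whole number, with voom's offset of 0.5) and fitted with the authors' library scaling by limma-voom (limma 3.58.1, R 4.3.3), 1 mean for each of 4 groups, with Benjamini-Hochberg adjustment over all 12900. On simulated reads the HBB comparison found 100 of 100 changes of 2-fold and 31 of 100 of 1.25-fold, with 8 of 12700 unchanged genes called. The simulated reads had a fixed dispersion of 0.01, and the changed genes were drawn from those with a mean log2 CPM above 1. In the data 28.3% of all genes were higher and 28.9% lower, so these rates do not carry over to the data. The members and gene lists were chosen with earlier results of these data known. Genes were named where they passed the 2-fold threshold, were among the 8 highest or 8 lowest called in HBB cells, had p under 0.1 for log2(Diff FC) (at most 12), were among the 5 largest changes each way between lines, were among the 3 highest of a family per length, or belonged to a panel, and some genes that met these rules or lists are not reported here. Positions, lengths and GC content are from GENCODE vM21, in which all 82 symbols were found. Of the 82, 11 share over 5% of their read-length windows with other genes and 26 overlap exons of another gene, and their reads are uncertain. The study describes the replicates as independent samples, and whether they were separate cultures is not given in the sources used here, so p-values measure the spread between these samples. Deviations from the group means of samples with the same number in the 2 lines correlated, with Pearson values over 10154 genes of 0.33 to 0.63 in cell bodies and 0.20 to 0.39 in protrusions, so the numbers pair the lines. Same-numbered Ps and CB had 0.05 to 0.39 in HBB cells, with 3 of 4 pairs over 0.1, and −0.36 to 0.0025 in Pkp4 cUTR cells, so not every pair passed 0.1 and they were not taken as paired. The alternatives were other weights, scalings, offsets and filters, replicate blocks, thresholds and leaving out each sample, with the GC correction and the block within each fraction added after the data were seen.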

Additional observations from a re-analysis of the deposited data

Results flagged for a closer look

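In 152 groups of 4 samples (38 named genes), 5 held a sample far from the other 3 by Dixon's criterion, which chance gives in about 1 of 20 groups. Replicate 4 of the HBB cell bodies, the lowest of its group on the first principal component, held 2 of them. Its log2 CPM was 7.40 for Ube2m, against 7.13 to 7.16 in the other 3, and 6.72 for Ube2o, against 6.98 to 7.03. Ube2s had 6.46 in Pkp4 cUTR protrusions replicate 3, against 5.96 to 6.01. Ube2v2 had 1.69 in HBB protrusions replicate 1, against 1.27 to 1.33. Uchl5 had 1.21 in Pkp4 cUTR protrusions replicate 1, against 1.64 to 1.68. No gene of the 82 moved in opposite directions in the lines without overlap, and none had an adjusted p under 0.05 for log2(Diff FC) by limma, with 2 at an unadjusted p under 0.05.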

How the results depend on the processing

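Of 136 counts under 15 settings that left out no single sample, 95 were within 1.5 times the value given above. Scaling to sample totals gave 16 higher and 27 lower RNAs in HBB and 12 and 33 in Pkp4 cUTR protrusions, 1 and 2 over 2-fold, 0 lower in Pkp4 cUTR cell bodies and 1 higher in Pkp4 cUTR protrusion samples. Over 2-fold in HBB cells the count was 1 with quantile normalization, with log2(CPM + 1) and without both cell bodies of replicate 4, and 0 with the GC correction. In Pkp4 cUTR cells it was 2 with log2(CPM + 1) and 1 with the GC correction. A fold change above 1.5 was reached by 13 in each line. For log2(Diff FC) the count was 2 at p under 0.05, beside 2.33% of all genes, and 8 with the GC correction. No share of all genes is given for the 2-fold counts under these settings, for the 1.5-fold counts or for the GC correction of log2(Diff FC). These counts therefore cannot be set against the background.

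The counts between the lines were small. Lower in Pkp4 cUTR cell bodies were 1 without precision weights, with an intensity trend, with median centring and with log2(CPM + 1), and 0 with the GC correction or without both cell bodies of replicate 4, which also left 1 higher. In Pkp4 cUTR protrusions 1 was higher without weights, with a trend, with median centring and with the GC correction, and 1 was lower under these 4, quantile normalization, log2(CPM + 1), the shared replicate block and without both cell bodies of replicate 4.

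A replicate block for each line pairs Ps and CB that share only a number, and under it 36 were higher and 16 lower in HBB and 37 and 20 in Pkp4 cUTR protrusions, and 5 had changed enrichment. A sample correlated best with its own number in 2 of the 4 HBB pairs and 0 of the 4 Pkp4 cUTR pairs. The replicate block within each fraction gave 9 for changed enrichment, 9 higher in Pkp4 cUTR cell bodies, and 7 higher and 4 lower in Pkp4 cUTR protrusions. The blocks changed no other count by over 1.5 times.

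With single samples left out, the counts ranged from 34 to 40 higher and 13 to 19 lower in HBB, 33 to 38 and 17 to 21 in Pkp4 cUTR protrusions, 1 to 4 and 3 to 6 over 2-fold, 3 to 8 with changed enrichment, 1 to 3 higher and 0 to 2 lower in Pkp4 cUTR cell bodies, and 1 to 3 and 0 to 1 in Pkp4 cUTR protrusion samples.

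Of named values, 8 changed sign where a call stood on either side. Scaling to totals gave −0.0216 for Ube2e2 in HBB, and −0.26 for Ube2e2 and −0.00035 for Ube2j1 in Pkp4 cUTR cells. The GC correction gave −0.0400 for Ube2n, −0.17 for Ube2d3, −0.0066 for Usp9x, −0.0213 for Usp14 and −0.25 for Otud4 in Pkp4 cUTR cells. The causes were not tested. Depth limits the rarest genes, with under 100 reads in some sample for 19 of the 82.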
